A study of Mus musculus with 23 samples.

Results

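AMPA and NMDA receptors are the glutamate-gated channels of excitatory synapses, and 9 of their subunit genes were followed in mouse nucleus accumbens, the ventral part of the striatum. They are the AMPA receptor genes Gria1, Gria2, Gria3 and Gria4 and the NMDA receptor genes Grin2a, Grin2b, Grin2c, Grin2d and Grin3a. The members were taken by name, each through the probe set with that single gene symbol and the highest mean over all arrays, and they are 9 of the 22180 genes with such a probe set. They had 12 such probe sets in all, since Grin2b, Grin2c and Grin2d had a second, dimmer set each. Grin1, the gene of the subunit that NMDA receptors require, was not analysed here, because no probe set carried its symbol alone.

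The study placed an adeno-associated virus (AAV) with a short hairpin RNA against Nr1d1, or with a scrambled hairpin as control, into the nucleus accumbens of C57BL/6J mice. The product of Nr1d1, REV-ERBα, is a clock protein that acts as a transcriptional repressor. Micropunched tissue was taken about 5 weeks later, at about 15 weeks of age, and hybridised to whole-transcript microarrays, 1 per mouse. The groups were 6 male mice labelled knockdown, 6 male controls, 6 female mice labelled knockdown and 5 female controls. The labels call the mice biological replicates and give all of them, males included, the same text on a postpartum day of collection, so reproductive state was not used. The promoter of the hairpin, the cells it reached and the hour of collection are not stated in the sources used, and a punch holds infected and uninfected cells together. All values below are log2 intensities as deposited, differences are knockdown minus control on that scale, and n is the number of mice.

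Background on the members helps to read the values. AMPA receptors are assemblies of 4 subunits that carry fast excitatory transmission, and the Gria2 subunit limits their calcium permeability. NMDA receptors admit calcium when glutamate binds while the membrane is depolarised. Their Grin2 subunits set opening time and magnesium block, and Grin3a lowers calcium entry. Medium spiny neurons, the principal striatal cells, receive glutamate from the cortex and other regions. Slc17a7 encodes the vesicular glutamate transporter of cortical projection neurons, and is little made by medium spiny neurons.

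Library checks preceded the comparisons. Array medians lay between 5.84 and 5.88 in the 12 male arrays and between 6.11 and 6.17 in the 11 female arrays, so the array sets look as if they had been normalized apart. No label names such a step, and since an offset of this kind cannot be told apart from sex, no level is compared between males and females here. Xist and the Y-linked genes matched the labelled sex on all 23 arrays. Nr1d1 itself differed by −0.012 in males (SE 0.09, limma adjusted p = 0.997) and by −0.052 in females (SE 0.09, limma adjusted p = 0.963). No fall of the targeted RNA was detectable, so "knockdown" is a label here and every direction rests on it. The labelled tissue was checked on the 11 measured medium spiny neuron markers, whose mean log2 level per array lay between 10.28 and 11.00.

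No subunit gene passed the test between knockdown and control mice in either sex. In males 7 of the 9 were higher and 2 lower, with a median difference of 0.013 against 0.003 over all genes, and in females 3 were higher and 6 lower, with a median of −0.046 against 0.0003. None passed an adjusted p of 0.05 in limma, where p-values were adjusted over all 41345 probe sets, and the share called among all probe sets was also 0% in both sexes. At an unadjusted limma p under 0.05 the members again gave 0 of 9 in both sexes, where 4.71% of all probe sets passed in males and 5.86% in females. The average over both sexes gave 0 of 9 at the adjusted and at the unadjusted threshold (0% and 4.71% of all probe sets), and so did the male minus female difference of the effects (0% and 5.70%). In the exact permutation test, only Grin2b in females lay under an unadjusted p of 0.05 among the members (p = 0.00866). Of all 41345 probe sets, 2765 did so in females and 1510 in males in that test. In bulk tissue, fewer cells of a type and less RNA per cell cannot be told apart.

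**Figure D1:**
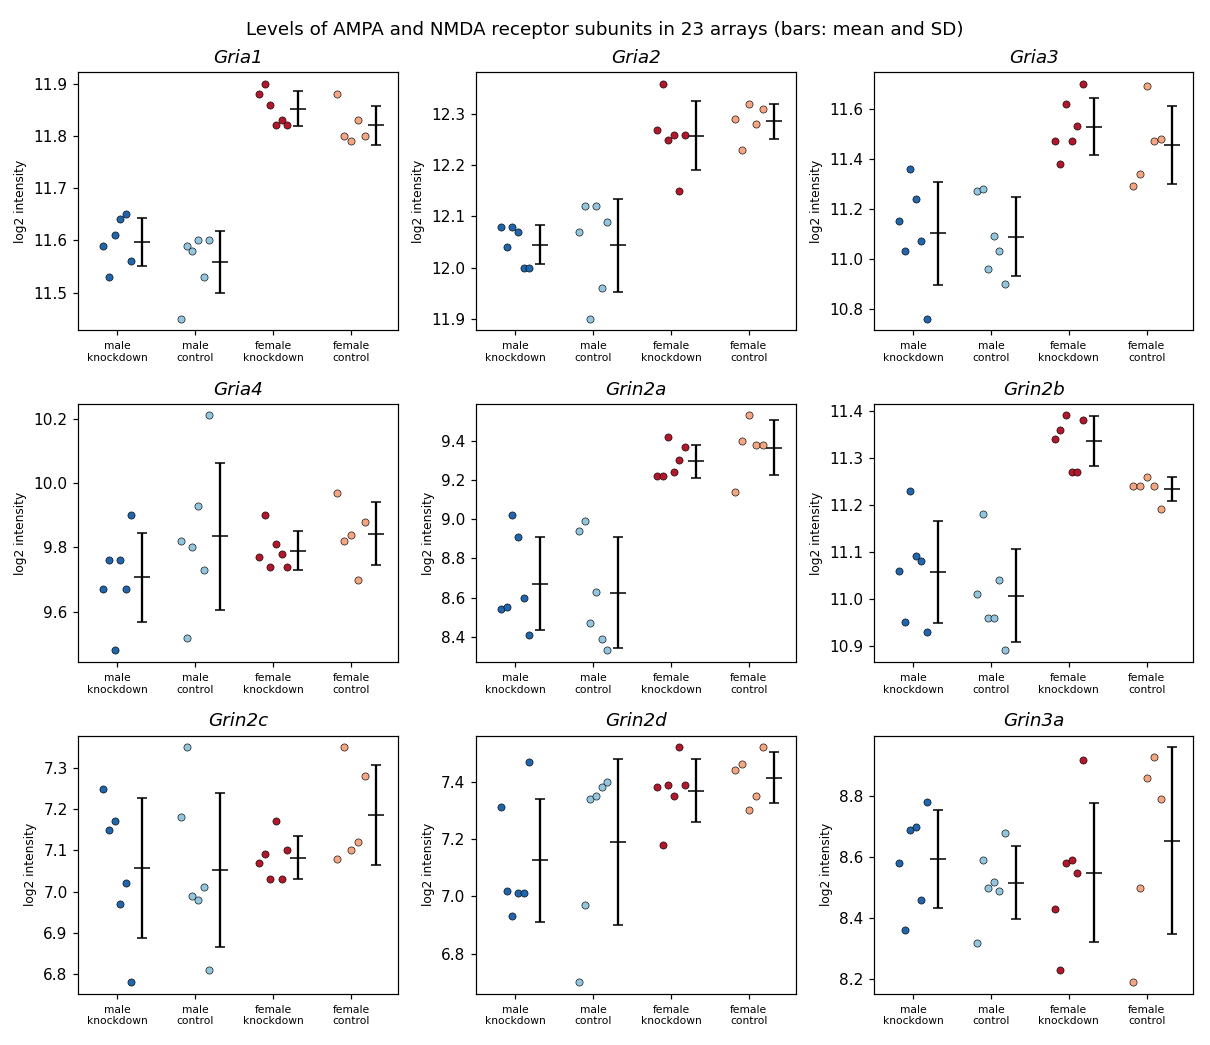
Log2 intensity (vertical axis, 1 panel per gene with its own range) of each of the 9 subunit genes in all 23 arrays by labelled group, with points for mice and bars for mean and SD. Knockdown and control points overlap in every panel and sex except for Grin2b in females, where knockdown arrays lie at 11.27 to 11.39 and control arrays at 11.19 to 11.26.

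Among the AMPA receptor genes, Gria1, whose subunit is moved into synapses during potentiation, had the tightest values. It lay between 11.53 and 11.65 (median 11.60) in male knockdown arrays, against 11.45 to 11.60 (median 11.59) in male controls. Female knockdown arrays lay between 11.82 and 11.90 (median 11.85), and the 5 female controls had 11.88, 11.80, 11.79, 11.83 and 11.80. The groups overlapped in both sexes, with differences of 0.038 in males (SE 0.037, 95% interval −0.038 to 0.115) and 0.032 in females (SE 0.039, interval −0.049 to 0.112).

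Gria2 was also narrow, though less so than Gria1. Its values ran from 12 to 12.08 (median 12.06) in male knockdown arrays, against 11.90 to 12.12 (median 12.08) in male controls, a difference of 0.002 (SE 0.044, interval −0.089 to 0.092). In females they ran from 12.15 to 12.36 (median 12.26) in knockdown arrays, against 12.29, 12.23, 12.32, 12.28 and 12.31 in controls, a difference of −0.028 (SE 0.046, interval −0.123 to 0.068). The knockdown values enclosed the control values in females, and the reverse held in males.

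Gria3 and Gria4 spread more widely. Gria3 ranged from 10.76 to 11.36 (median 11.11) in male knockdown arrays, against 10.90 to 11.28 (median 11.06) in male controls. Its female knockdown arrays ranged from 11.38 to 11.70 (median 11.50), and the female controls had 11.29, 11.34, 11.69, 11.47 and 11.48. The Gria3 difference was 0.013 in males (SE 0.091) and 0.074 in females (SE 0.095), both smaller than their errors. Gria4 ranged from 9.48 to 9.90 (median 9.72) in male knockdown arrays, against 9.52 to 10.21 (median 9.81) in male controls. In females its knockdown arrays ranged from 9.74 to 9.90 (median 9.78), and the controls had 9.97, 9.82, 9.84, 9.70 and 9.88. Gria4 lay below the control mean in 5 of 6 knockdown arrays in each sex, but its differences of −0.128 in males (SE 0.084, limma adjusted p = 0.996) and −0.052 in females (SE 0.088, limma adjusted p = 0.963) did not pass the test.

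Of the NMDA receptor genes, Grin2b, whose subunit dominates early in development and stays abundant in the striatum, stood out in 1 sex. Its female knockdown arrays lay between 11.27 and 11.39 (median 11.35), and the 5 female controls had 11.24, 11.24, 11.26, 11.24 and 11.19, so that all 6 knockdown arrays lay above every control. Non-overlapping groups occurred for 0.588% of all probe sets in females, in either direction, and for 1 of the 9 members. The difference was 0.101 (SE 0.054, interval −0.011 to 0.213), with a limma adjusted p of 0.865, and the exact permutation test gave p = 0.00866, or 0.698 adjusted over all probe sets. The limma error and interval rest on a spread shared by both sexes. The within-group SD of Grin2b was 0.043 in females and 0.104 in males, so the shared spread widens the female interval. The second, dimmer Grin2b probe set differed by 0.117 in females (SE 0.091) with overlapping groups. Male knockdown arrays lay between 10.93 and 11.23 (median 11.07), against 10.89 to 11.18 (median 10.99) in male controls, a difference of 0.050 (SE 0.051) with overlap. In males 0 of 9 members and 0.109% of all probe sets had groups that did not overlap. Averaged over both sexes, Grin2b differed by 0.076 (SE 0.037, interval −0.002 to 0.153, limma adjusted p = 0.980), with 4 of 6 male and 6 of 6 female knockdown arrays above the control mean.

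Grin2a, whose subunit speeds the closing of NMDA receptors as synapses mature, ranged from 8.41 to 9.02 (median 8.58) in male knockdown arrays, against 8.33 to 8.99 (median 8.55) in male controls. In females it ranged from 9.22 to 9.42 (median 9.27) in knockdown arrays, against 9.14, 9.40, 9.53, 9.38 and 9.38 in controls. The male groups covered nearly the same range, the female knockdown values lay inside the range of the controls, and the differences were 0.047 in males (SE 0.113) and −0.071 in females (SE 0.118).

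Grin2c, best known from cerebellar granule cells, ranged from 6.78 to 7.25 (median 7.09) in male knockdown arrays, against 6.81 to 7.35 (median 7.00) in male controls. Its female knockdown arrays, at 7.03 to 7.17 (median 7.08), all lay below the female control mean of 7.19 but overlapped with the single control values of 7.08, 7.35, 7.10, 7.12 and 7.28. Its differences were 0.003 in males (SE 0.081) and −0.104 in females (SE 0.085, limma adjusted p = 0.912).

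Promoter windows, from 250 bases before to 50 after the gene start in the RefSeq table on GRCm38.p6, were given for 4 of the 9 members, Gria2, Gria4, Grin2c and Grin2d. They were searched on both strands for AGGTCA, the core of the element that REV-ERBα binds. It was found in the Grin2c window alone, starting at position −248 from the gene start on the gene's strand, and in 16.3% of all 32851 windows. The window, chr11:115267194-115267493 on the minus strand, is shown because it is the only member window with these letters, given in capitals.
Grin2c: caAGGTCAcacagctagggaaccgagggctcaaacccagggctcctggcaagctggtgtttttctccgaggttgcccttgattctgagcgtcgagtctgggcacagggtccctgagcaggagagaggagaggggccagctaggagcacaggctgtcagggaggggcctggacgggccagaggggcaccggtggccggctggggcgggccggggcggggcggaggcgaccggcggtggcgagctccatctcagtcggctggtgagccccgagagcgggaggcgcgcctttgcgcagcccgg
The match is a description of the letters, and Grin2c was not called between knockdown and control mice in either sex.

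Grin2d, a subunit of slowly closing receptors found in interneurons, ranged from 6.93 to 7.47 (median 7.02) in male knockdown arrays, against 6.70 to 7.40 (median 7.35) in male controls. The female knockdown arrays lay between 7.18 and 7.52 (median 7.39), and the female controls had 7.44, 7.46, 7.30, 7.35 and 7.52. Both comparisons overlapped, with differences of −0.065 in males (SE 0.109) and −0.046 in females (SE 0.114). The dimmer second probe set of Grin2d, which is not among the 9 counted, differed by −0.133 in males (SE 0.061, interval −0.261 to −0.006), with a limma unadjusted p of 0.041 and an adjusted p of 0.996.

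Grin3a ranged from 8.36 to 8.78 (median 8.64) in male knockdown arrays, against 8.32 to 8.68 (median 8.51) in male controls. Female knockdown arrays ranged from 8.23 to 8.92 (median 8.57), and the female controls had 8.19, 8.50, 8.86, 8.93 and 8.79. The lowest and the highest female value were both controls, and the differences were 0.078 in males (SE 0.115) and −0.104 in females (SE 0.121). Over the 9 genes, the 95% intervals of the differences reached at most 0.238 to either side of the estimate in males and 0.250 in females.

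**Figure D2:**
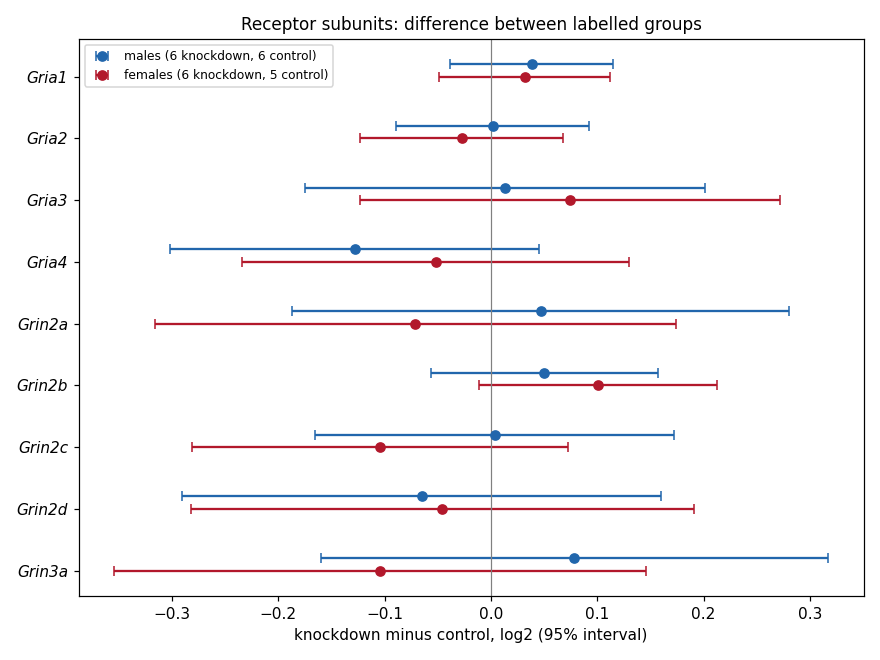
Knockdown minus control difference in log2 level (horizontal axis) of each subunit gene in males and in females, with 95% intervals from limma, whose spread per gene is shared by both sexes. All 18 intervals include 0, and that of Grin2b in females, −0.011 to 0.213, comes closest to leaving it out among the female ones.

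In males the Slc17a7 level was not balanced between the groups. It ranged from 5.37 to 9.97 (median 8.97) in male knockdown arrays, against 4.64 to 10.34 (median 7.09) in male controls, a difference of 1.17 (SE 0.85, limma adjusted p = 0.996). The 12 male arrays fell into 4 at 4.64 to 6.17 (1 knockdown and 3 control) and 8 at 8.01 to 10.34 (5 knockdown and 3 control), with a gap of 1.84 between them. In females it ranged from 8.92 to 11.13 (median 10.32) in knockdown arrays, against 9.40, 10.46, 11.05, 10.57 and 10.48 in controls, a difference of −0.105 (SE 0.891). With Slc17a7 as a covariate, 0 of 9 members passed in either sex, and the male differences of Gria2, Gria3, Grin2a, Grin2c and Grin2d, none of them called, changed sign.

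The relation to Slc17a7 was then taken within groups, as a slope in limma with the group means in the model, so that no difference between knockdown and control enters it. The subunits did not follow Slc17a7 alike. In the 12 male arrays, Gria3, Grin2a and Grin2c rose with Slc17a7 and Grin2d fell with it, while the other 5 did not pass the test. With p-values adjusted over 41344 probe sets, 3 of 9 members were called in the positive direction, against 1.24% of all probe sets, and 1 of 9 in the negative direction, against 1.41%. The median slope of the members was 0.019 and that of all genes −1.60e-05. In the 11 female arrays 0 of 9 members were called, with 0.336% of all probe sets called positive and 0.0774% negative.

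**Figure D3:**
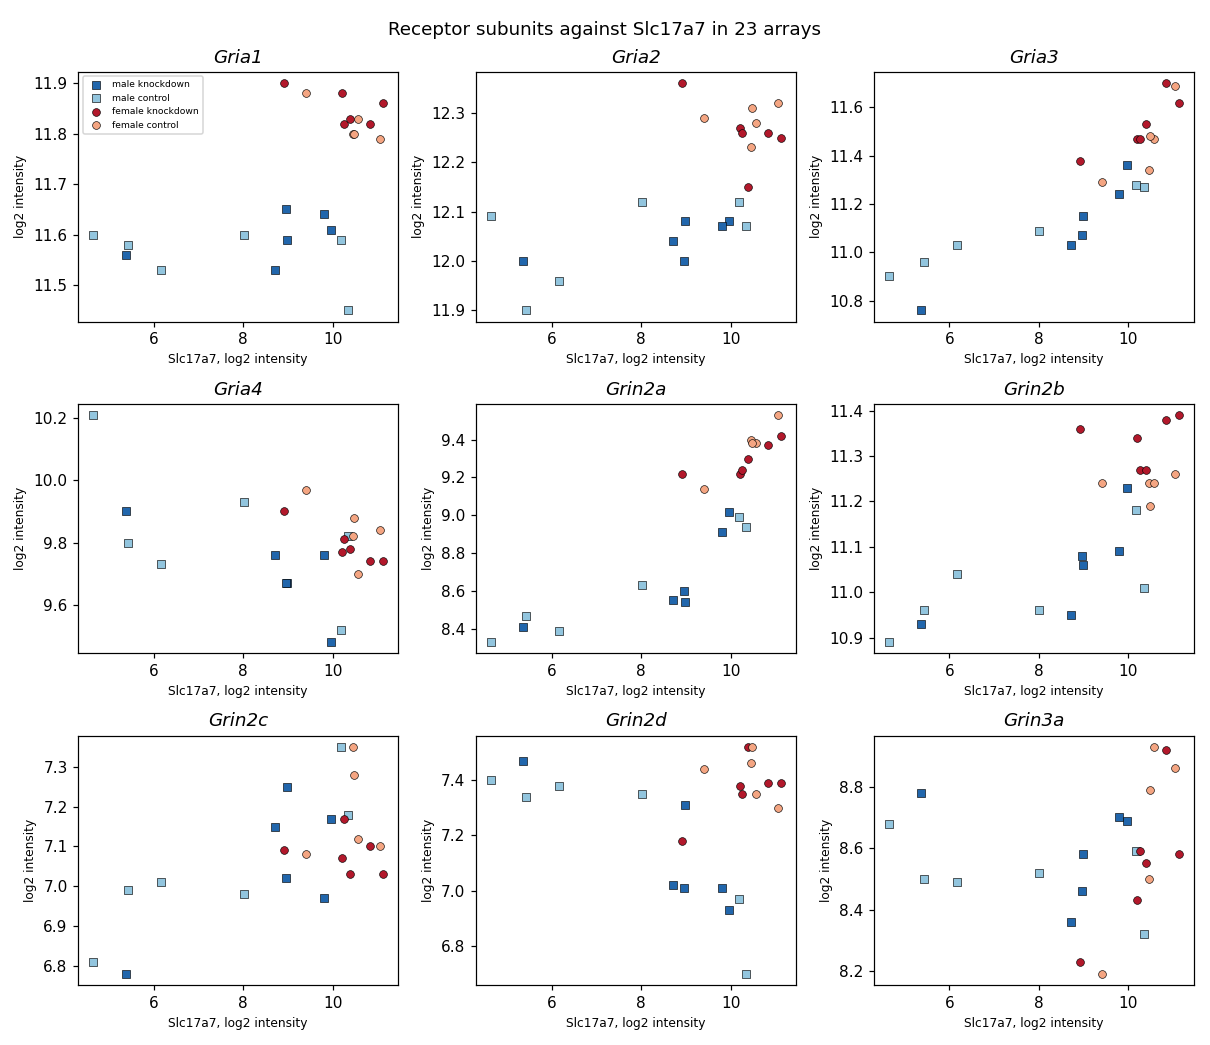
Log2 intensity of each subunit gene (vertical axis, own range per panel) against the log2 intensity of Slc17a7 (horizontal axis) in 12 male arrays (squares) and 11 female arrays (circles). In males Grin2a and Gria3 slope upward (0.111 and 0.081 per log2 unit) and Grin2d downward (−0.104), and 4 male arrays lie at or below 6.17 on the Slc17a7 axis.

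Grin2a had the steepest positive slope in males, 0.111 per log2 unit of Slc17a7 (SE 0.016, interval 0.078 to 0.144, limma adjusted p = 0.000366). It lay at 8.33 in the male array with the lowest Slc17a7 (4.64) and at 8.94 in the one with the highest (10.34). The female slope was 0.137 (SE 0.050, interval 0.032 to 0.241), with a limma adjusted p of 0.377. Values minus group means correlated in the 11 female arrays at r = 0.842 (permutation p = 0.00022, adjusted 0.0579) and rho = 0.904 (permutation p = 0.00042, adjusted 0.109), and r was 0.972 without the 2 arrays farthest out on Slc17a7. Because the male arrays fall into separate clusters, r is given there only over the 8 arrays above the gap, where it was 0.874 (exact permutation p = 0.0111, adjusted 0.655) and rho 0.762 (exact p = 0.0431, adjusted 0.823). Without the 2 farthest of those arrays, r was 0.981.

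Gria3, on the X chromosome, was the AMPA receptor gene that rose with Slc17a7, by 0.081 per log2 unit in males (SE 0.013, interval 0.054 to 0.108, limma adjusted p = 0.00102). It stood at 10.90 in the male array with the lowest Slc17a7 and at 11.27 in the one with the highest. The female slope was 0.160 (SE 0.041, interval 0.074 to 0.246, limma adjusted p = 0.115). Its correlation in the 11 female arrays was r = 0.826 (permutation p = 0.00353, adjusted 0.188) and rho = 0.907 (permutation p = 0.00016, adjusted 0.0767), with r = 0.826 again after the 2 farthest arrays were left out. In the 8 male arrays above the gap, r was 0.849 (exact p = 0.00417, adjusted 0.654) and rho 0.810 (exact p = 0.0111, adjusted 0.781), and r was 0.952 without the 2 farthest.

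Grin2d went the other way in males, with a slope of −0.104 (SE 0.018, interval −0.143 to −0.066, limma adjusted p = 0.00224). It stood at 7.40 in the male array with the lowest Slc17a7 and at 6.70 in the one with the highest. Its female slope was 0.047 (SE 0.058, interval −0.075 to 0.168, limma adjusted p = 0.954). Grin2c rose by 0.069 in males (SE 0.016, interval 0.035 to 0.103, limma adjusted p = 0.0214), and its female slope was 0.001 (SE 0.051). In the 8 male arrays above the gap, Grin2d had r = −0.803 (exact p = 0.0611, adjusted 0.783) and rho = −0.814 (exact p = 0.05, adjusted 0.823), and r was −0.464 without the 2 farthest. Grin2c had r = 0.463 there (exact p = 0.467, adjusted 0.935) and rho = 0.429 (exact p = 0.468, adjusted 0.964), and r was −0.262 without the 2 farthest. The Grin2c call was lost without replicate 2 of the male controls (limma adjusted p = 0.138), without replicate 6 of the male controls (0.0937) and without replicate 6 of the male knockdown arrays (0.124).

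The second probe sets of these genes did not follow. In males that of Grin2d had a slope of 0.026 (SE 0.015, limma adjusted p = 0.513) and that of Grin2c −0.021 (SE 0.036, limma adjusted p = 0.892). With a gene's probe sets averaged, the male slopes became −0.039 for Grin2d (limma adjusted p = 0.141) and 0.024 for Grin2c (limma adjusted p = 0.707). The Grin2c and Grin2d relations therefore hold for the brighter probe set of each gene, while Grin2a and Gria3 had a single probe set.

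The other members gave the following male slopes, none of them called. Gria4 had −0.059 (SE 0.018, limma adjusted p = 0.0894), and leaving out replicate 5 of the male controls put it past the threshold (−0.066, limma adjusted p = 0.0475), as did a filter on dim probe sets (limma adjusted p = 0.0454). Grin2b had 0.035 (SE 0.012, limma adjusted p = 0.143). Gria2 had 0.019 (SE 0.011), Gria1 −0.003 (SE 0.010) and Grin3a −0.027 (SE 0.023). For Gria1 the interval of −0.023 to 0.017 is the narrowest of the 9, so that a slope as large as that of Grin2a lies outside it.

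In females 3 members, Grin3a, Gria3 and Grin2a, had positive slopes at an unadjusted p under 0.05, where 4.01% of all probe sets did. Grin3a had a slope of −0.027 in males and 0.303 in females (SE 0.071, interval 0.154 to 0.452, limma adjusted p = 0.0689). The male minus female difference of its slopes was −0.330 (SE 0.075, limma adjusted p = 0.200), and 0 of 9 members passed that test of the difference, against 0.00242% of all probe sets. At an unadjusted p under 0.05 the difference counted 2 of 9 members, Grin2d and Grin3a, against 6.23%. The Grin3a correlation in females, r = 0.795 (permutation p = 0.00648, adjusted 0.247) and rho = 0.736 (permutation p = 0.0127, adjusted 0.329), had r = 0.475 without the 2 female arrays lowest in Slc17a7 and rests on them. The remaining female slopes were −0.085 for Gria4 (SE 0.056), −0.037 for Gria1 (SE 0.030), −0.033 for Gria2 (SE 0.034) and 0.009 for Grin2b (SE 0.037).

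**Figure D4:**
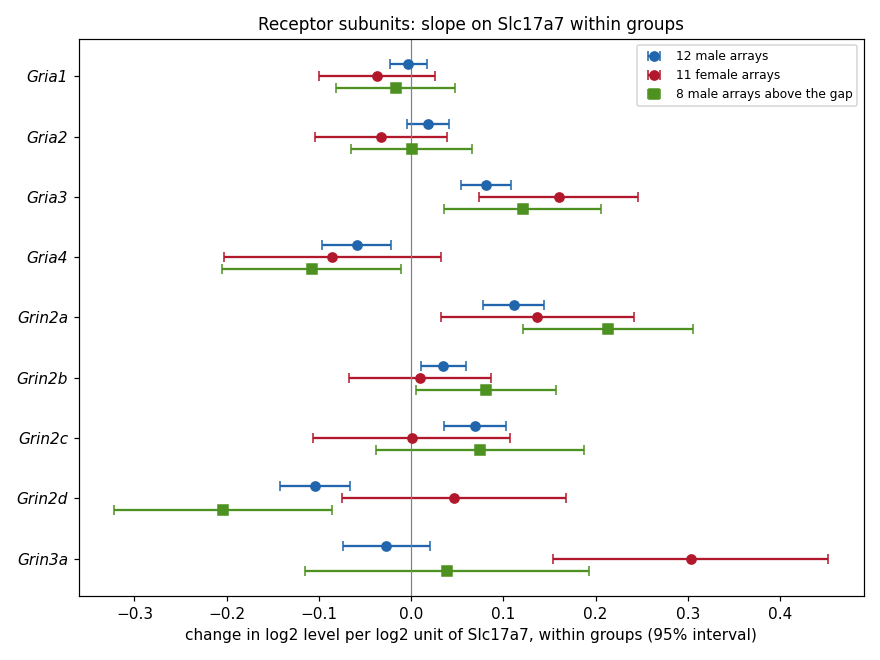
Slope of each subunit gene on Slc17a7 within groups (horizontal axis, change in log2 level per log2 unit of Slc17a7) with 95% intervals, in the 12 male arrays, the 11 female arrays and the 8 male arrays above the gap. The intervals of Gria3 and Grin2a lie right of 0 in all 3 sets. In both male sets those of Grin2d and Gria4 lie left of 0 and that of Grin2b lies right of 0. The Grin2c interval lies right of 0 in the 12 male arrays alone, and the Grin3a interval in females alone. Gria4 and Grin2b were called in neither male set.

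The slopes in the 8 male arrays above the gap, a setting added after the data were seen, do not use the 4 arrays poor in Slc17a7. Grin2a then had a slope of 0.214 (SE 0.044, limma adjusted p = 0.0398) and was the only member called, against 0.368% of all probe sets called positive and 0.106% negative. Grin2d had −0.204 (SE 0.056, limma adjusted p = 0.151), Gria3 0.121 (SE 0.040, limma adjusted p = 0.270) and Grin2c 0.075 (SE 0.053, limma adjusted p = 0.727). These kept the sign they had over the 12 arrays, of which the 8 are a part, so the shared sign is not a separate test. Grin3a, uncalled in both fits, went from −0.027 over the 12 arrays to 0.039.

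Gria4, whose uncalled slopes on Slc17a7 were negative in both sexes, was also set against Slc17a6, the vesicular glutamate transporter of thalamic and other subcortical neurons. This relation was chosen after the data were seen. Slc17a6 ranged from 6.73 to 7.66 (median 6.88) in male knockdown arrays, against 6.45 to 7.97 (median 7.10) in male controls. Gria4 rose with it in males by 0.378 per log2 unit (SE 0.061, limma adjusted p = 0.00945), and was the only member called, against 0.561% of all probe sets called positive and 0.498% negative. It stood at 10.21 in the male array with the highest Slc17a6 and at 9.52 in the one with the lowest. Values minus group means gave r = 0.918 in the 12 male arrays (permutation p = 0.00015, adjusted 0.112) and rho = 0.940 (permutation p = 8.00e-05, adjusted 0.207). Without the 2 farthest arrays, replicate 6 of the male controls and replicate 6 of the male knockdown arrays, r was 0.817. The same 2 male arrays lay farthest from the median of Slc17a7 minus its group mean. With Slc17a7 in the model too, the male slope was 0.335 (limma adjusted p = 0.0394). The female slope was 0.043 (SE 0.138), with 0 members and 0% of all probe sets called, and the difference between the sexes was not tested. Without replicate 2 or replicate 6 of the male controls the male call was lost (limma adjusted p = 0.0587 and 0.282), and the model with the replicate number as a block did not call it. Other male slopes on Slc17a6 were uncalled but had intervals left of 0. They were those of Grin2c (−0.284, limma adjusted p = 0.075), Grin2b (−0.177, limma adjusted p = 0.095), Grin2a (−0.273) and Gria3 (−0.247). The male slopes of Grin2d, Grin3a and Gria2 were positive and that of Gria1 negative, all with intervals that include 0.

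Spread between mice of a group differed among the members. In males the within-group SD was 0.261 for Grin2a, 0.254 for Grin2d, 0.189 for Gria4, 0.183 for Gria3 and 0.179 for Grin2c, against a median of 0.140 over all probe sets. Gria1, at 0.053, and Gria2, at 0.070, varied least. In females Grin3a had 0.265 and the other 8 members at most 0.135, against a median of 0.127.

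Genes that accompany the receptors were taken from lists of AMPA receptor auxiliary and assembly proteins, postsynaptic scaffold and trafficking proteins, and other ionotropic subunits. Between knockdown and control mice, none of them passed the limma test in either sex. Of the 22 measured auxiliary genes, 19 were higher and 3 lower in males, with a median of 0.039, and 15 were higher and 7 lower in females, with a median of 0.030. The smallest unadjusted p in that list belonged to Abhd6, an enzyme that limits AMPA receptor delivery to the surface, in males (0.117, SE 0.054, limma adjusted p = 0.996) and to Shisa7, an auxiliary protein, in females (0.122, SE 0.078, limma adjusted p = 0.883). Of the 24 measured scaffold genes, 20 were higher and 4 lower in males, with a median of 0.053, and 15 and 9 in females, with a median of 0.013. Lin7b in males (0.145, SE 0.072) and Lin7a in females (0.151, SE 0.068), both adaptors at synaptic junctions, had its smallest p. Over all genes 51.6% were higher in males and 50.2% in females.

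Slopes on Slc17a7 within groups gave calls in those lists. In males 4 of 22 auxiliary genes rose with Slc17a7 and 0 fell, against 1.24% and 1.41% of all probe sets, with a list median of 0.005. Nptx1, a secreted pentraxin that gathers AMPA receptors at synapses, had a slope of 0.314 (SE 0.034, limma adjusted p = 2.21e-05). Cnih3, a cornichon that slows AMPA receptor closing, had 0.210 (SE 0.032, limma adjusted p = 0.000692). Nptx2, another pentraxin, had 0.090 (SE 0.023, limma adjusted p = 0.0371), and Frrs1l, which acts in AMPA receptor assembly, had 0.057 (SE 0.012, limma adjusted p = 0.00901). In females Cnih3 (0.544, SE 0.102, limma adjusted p = 0.0165) and Nptx1 (0.504, SE 0.108, limma adjusted p = 0.0426) rose and 0 fell, against 0.336% and 0.0774% of all probe sets.

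The scaffold list gave 4 of 24 rising and 0 falling in males (1.24% and 1.41% of all probe sets), with a median of 0.029, and 1 rising and 0 falling in females (0.336% and 0.0774%), with a median of −0.001. Dlgap1, which links the scaffold protein PSD-95 to Shank proteins, passed in both, with 0.111 in males (SE 0.019, limma adjusted p = 0.00183) and 0.331 in females (SE 0.061, limma adjusted p = 0.0137). Homer2 had 0.153 (SE 0.030, limma adjusted p = 0.00505), Homer1 0.079 (SE 0.015, limma adjusted p = 0.0037) and the kinase gene Camk2a 0.054 (SE 0.015, limma adjusted p = 0.0499) in males. Of the other ionotropic subunits, Grin3b and Grid1 were measured, and 0 of 2 passed in either sex.

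**Figure D5:**
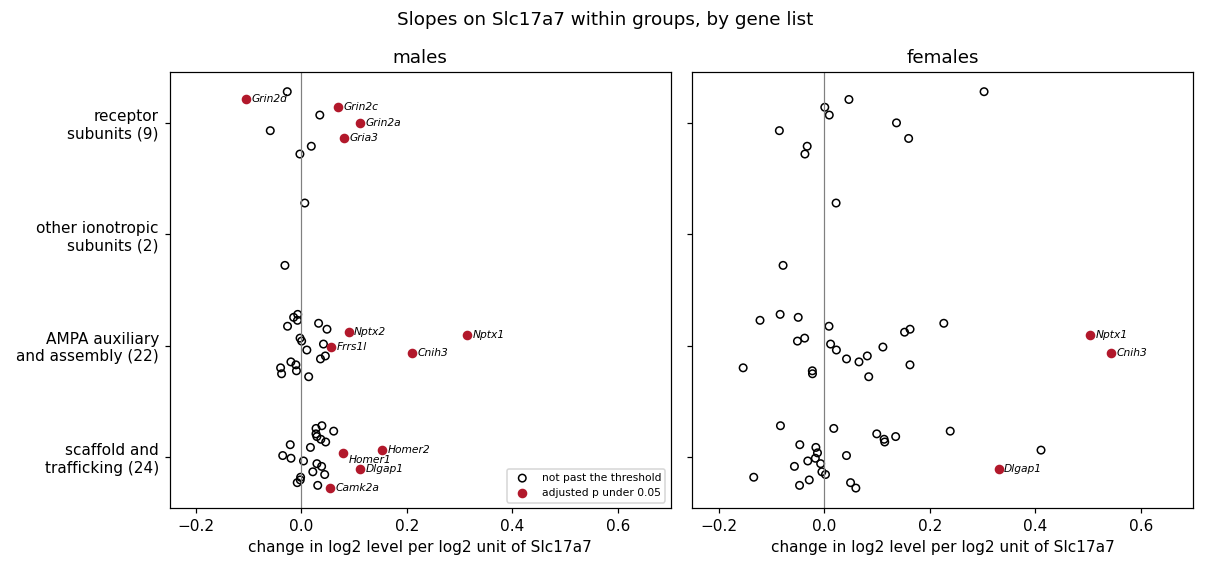
Slope on Slc17a7 within groups (horizontal axis, change in log2 level per log2 unit of Slc17a7) for every measured gene of 4 lists in males (left) and females (right), with genes past an adjusted p of 0.05 filled and named. Nptx1, Cnih3 and Dlgap1 are filled in both panels, and Grin2d is the only filled point left of 0.

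Markers of cell types moved with Slc17a7 too. Of the 8 other measured cortical excitatory neuron markers, 4 were called as rising with Slc17a7 in males (Neurod2, Neurod6, Tbr1 and Fezf2). In females 2 were (Neurod2 and Tbr1), and 0 were called as falling in either sex. The shares of all probe sets were 1.24% positive and 1.41% negative in males, and 0.336% and 0.0774% in females. Without a threshold, 1 of the 8 slopes was negative in males and 2 in females. Neurod2, a transcription factor of such neurons, had a slope of 0.389 in males (SE 0.033, limma adjusted p = 1.11e-06) and 0.803 in females (SE 0.103, limma adjusted p = 0.00103). The mean log2 level of the 9 cortical markers, Slc17a7 included, ranged per array from 6.09 to 7.58 in male knockdown arrays, against 5.97 to 7.92 in male controls, and from 7.07 to 7.97 in female knockdown arrays, against 7.23 to 7.83 in female controls. With the mean of the other cortical markers in place of Slc17a7, 4 subunit genes were called in males, 3 positive and 1 negative, against 1.51% and 1.58% of all probe sets in that model, with limma adjusted p-values of 8.65e-05 for Grin2a, 5.37e-05 for Grin2d, 0.00221 for Gria3 and 0.0497 for Grin2c. The arrays are the same and several of these markers rose with Slc17a7 in them, so this is not a separate test.

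Of the 11 medium spiny neuron markers, 0 passed on Slc17a7, and their slopes in males had a median of 0.013 with 9 positive and 2 negative. In females all 11 slopes were negative, with a median of −0.128. Of the 8 genes listed as striatal interneuron markers, Vip rose in males (0.237, SE 0.026, limma adjusted p = 2.11e-05), as the called cortical markers did. Chat, the acetylcholine-synthesising enzyme of cholinergic interneurons, fell in males with a slope of −0.122 (SE 0.026, limma adjusted p = 0.00997). Kit, another interneuron marker, fell with −0.065 (SE 0.011, limma adjusted p = 0.00206). Over the 8 listed, 5 slopes were positive and 3 negative in males (median 0.022), and 6 were positive and 2 negative in females (median 0.109). Vip also rose in females (0.508, SE 0.081, limma adjusted p = 0.0061). The astrocyte glutamate transporter Slc1a2, 1 of 7 astrocyte markers, rose in males (0.042, SE 0.010, limma adjusted p = 0.0211). Most of that list went the other way in males, with 2 slopes positive and 5 negative (median −0.017). Of all probe sets, 1.24% were called positive and 1.41% negative in males, and 0.336% and 0.0774% in females. Of the oligodendrocyte, oligodendrocyte precursor, microglia and endothelium markers, 0 passed in either sex. Between knockdown and control mice 0 markers of any type passed, and the 11 medium spiny neuron markers were all higher in males (median 0.108), against 4 higher and 7 lower in females (median −0.025). The part of these cell types in the subunit values was not tested.

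Genes outside the family were ranked by their likeness to each member. The rank used the lower of Pearson's r in the 12 male and the 11 female arrays, over values minus group means. The top 2 are given, and being picked as the highest among all genes, their r are high by choice. These r are descriptions, and genes that follow Slc17a7 share its male clusters. Gria3 was most like Dnah5, with r of 0.944 in males and 0.928 in females, and Nfib, a transcription factor, with 0.918 in males and 0.951 in females. For Grin2a they were Mical2 (0.943 in males, 0.923 in females) and Prss23 (0.922 and 0.931). Grin2b was most like Neurog1 (lower r 0.876) and Tet3 (0.850), Gria4 like Mpp6 (0.834) and Mtmr2 (0.831), and Gria2 like Mib1 (0.818) and Ddx6 (0.800). Grin3a was nearest to Rmst (0.816) and Tenm1 (0.801), Grin2d to Plekho2 (0.783) and Fndc10 (0.757), Gria1 to Rps6ka5 (0.772) and Nemp1 (0.748), and Grin2c to Luzp2 (0.658) and Cxcl14 (0.644).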

How the data were processed

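Whole-transcript arrays of 23 mice were analysed. The authors deposited log2 intensities for 41345 probe sets and, per the submitters' processing notes, used Transcriptome Analysis Console. Its version, summarisation, normalization and genome build were not given in the sources used. Genes were named from probe sets to which the platform annotation gives 1 symbol (23521), not from those with several (1814) or none (16010). limma 3.58.1 in R 4.3.3 fitted 1 mean per group, and in a second model also 1 slope per sex on Slc17a7 minus its group mean, with 19 and 17 residual degrees of freedom. The residual spread of a probe set was shared by both sexes in these 2 models. Both models were run on simulated data with planted differences and slopes larger than those of the members here. Slopes were planted in male arrays only, on a simulated covariate without clusters. Recovery of values as small as those of the members was not tested. Tests were two-sided, with Benjamini-Hochberg adjustment over all probe sets at 0.05. Exact permutation tests used 924 splits in males and 462 in females, and correlations 100000 resamples within groups (all 720 for the 8 arrays). The labels do not say whether replicate numbers pair mice. Deviations of same-numbered arrays of a sex correlated at −0.0959 to 0.135, highest for replicate 6 of the males. Replicate numbers were left out of the main models and used as a block in an alternative run. Shared handling of same-numbered arrays was not tested otherwise. Named genes are the members, Slc17a7, Nr1d1, the 2 genes most like each member and, of each list, the genes called and the 2 with the smallest p, of which the text prints some. The members and lists were chosen with earlier results of these data known. Precision is limited by the number of arrays.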

Additional observations from a re-analysis of the deposited data

Results flagged for a closer look

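Of 36 groups of values (9 subunit genes in 4 groups) tested for a single far value, 1 was past the 95% limit, which chance passes in about 1 of 20 groups. It was Grin2b in replicate 5 of the female controls, at 11.19, where the other 4 female controls lay between 11.24 and 11.26. Without that array the Grin2b difference in females was 0.09, the lowest of the values obtained by leaving out single arrays.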

How the results depend on the processing

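No member passed between knockdown and control in either sex, averaged or in the difference of the effects, under any alternative run. Uncalled differences near 0 changed sign. The male difference of Gria2 was −0.0025 under quantile normalization and that of Grin2c −0.0032 with array weights and −0.029 with a gene's probe sets averaged. With Slc17a7 as a covariate the male differences were −0.020 for Gria2, −0.081 for Gria3, −0.084 for Grin2a, −0.077 for Grin2c and 0.057 for Grin2d, and in the 8 male arrays above the Slc17a7 gap −0.049, −0.043, −0.129, −0.058 and 0.049 in that order of genes. Leaving out single arrays gave male differences of −0.027 to 0.017 for Gria2, −0.038 to 0.082 for Gria3, −0.023 to 0.120 for Grin2a and −0.045 to 0.063 for Grin2c.

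The 4 slope calls in males became 2 with probe sets averaged, 2 without the 2 farthest arrays of each set, 1 in the 8 arrays above the gap (chosen after seeing the data) and 0 from the 6 knockdown arrays alone, the last 3 with fewer arrays in the fit, and they numbered 3 to 5 when single arrays were left out. A filter on dim probe sets gave 5, with Gria4 added (limma adjusted p = 0.0454). The 0 calls in females became 2 (Grin3a and Gria3) with a filter on dim probe sets, which tests 20669, and 1 (Grin3a) with a trended robust prior. Uncalled female slopes that changed sign were Grin2c at −0.100 on other cortical markers, −0.129 without the 2 farthest arrays and −0.018 from knockdown arrays, Gria2 at 0.034 without the 2 farthest and 0.011 from control arrays, and Grin2d at −0.0070 with probe sets averaged, −0.083 without the 2 farthest and −0.068 from control arrays. In males Grin3a had 0.0045 without the 2 farthest arrays and 0.039 above the gap, and Gria1 0.014 from knockdown arrays. Leaving out single arrays gave female slopes of −0.044 to 0.012 for Gria2, −0.0043 to 0.039 for Grin2b, −0.041 to 0.020 for Grin2c and −0.050 to 0.078 for Grin2d, and male slopes of −0.0088 to 0.0072 for Gria1, −0.075 to −0.039 for Gria4 and 0.059 to 0.076 for Grin2c. The cause of these changes was not tested. Over all alternatives, 747 single-gene values kept their direction and side of the threshold, 58 changed sign, 21 lost a call and 5 gained one.

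With the replicate number as a block, which the labels do not say pairs mice, 1 male slope was called (Grin2a, limma adjusted p = 0.0292), the male slopes of Gria1 and Grin3a were 0.0051 and 0.022, and the female slope of Grin2b was −0.0044. On Slc17a6, the block left 0 male calls (Gria4, limma adjusted p = 0.993) and a female Gria4 slope of −0.102, and a trended robust prior gave 2 male calls. Leaving out single arrays gave 0 to 2 male calls on Slc17a6, a male Gria4 slope of 0.333 to 0.406 and a female one of −0.020 to 0.073. Signal over background was not available, so that dim probe sets, such as the second ones of Grin2b and Grin2c, cannot be told from background.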
